A study of Mus musculus with 9 samples.

Results

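The transcripts described here are those of 39 genes of glycolysis and of the response to low oxygen, taken from a list of symbols and read in mouse epidermis after loss of the lipoxygenase gene Alox12b. Of the 39 genes, 36 had a probe set assigned to a single gene, among 18193 such genes on the array. A gene was read from its brightest probe set over all 9 arrays. Gapdh, Gpi1 and Eno1 were not analysed here, because no probe set of the annotation used names any of them alone. The list uses no measured value as a criterion, but it was drawn up with earlier results of these data known.

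Epidermis came from adult mice of the hairless SKH1 background (5 generations of backcrossing), all homozygous for an Alox12b allele flanked by LoxP sites (Alox12b fl/fl). Mice of the inactivated group (5 arrays) also carried a single copy of the tamoxifen-dependent recombinase Cre-ERT2 under the keratin 14 promoter, which is active in basal keratinocytes. Littermates without Cre were the controls (4 arrays). All mice were given 3 intraperitoneal injections of 1 mg tamoxifen at 8 weeks of age, and skin was taken 6 days after treatment. The controls lacked Cre, so loss of Alox12b and active Cre cannot be told apart. Total RNA of the scratched-off epidermis was read on Affymetrix 3' expression arrays, 1 per mouse, and values are log2 levels as deposited. On all arrays the epidermal keratins Krt5, Krt14, Krt1 and Krt10 lay between 12.05 and 13.51, near the array maximum. Of 7 basal keratinocyte markers 1 rose and 3 fell, and of 8 suprabasal markers none rose and 2 fell. The suprabasal keratin Krt2 was at 1.82 to 2.32 on the inactivated arrays, near background, against 7.57 to 10.42 on the controls. In such bulk samples, fewer cells of a type and less RNA per cell cannot be told apart.

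Glycolysis splits glucose into pyruvate in the cytosol. Glucose enters through facilitative transporters, is trapped as glucose 6-phosphate by hexokinase, and is committed by phosphofructokinase. Lactate dehydrogenase then turns pyruvate into lactate, which leaves through monocarboxylate transporters, whereas pyruvate dehydrogenase sends pyruvate to the mitochondria unless its kinases switch it off. Epidermis has no blood vessels of its own and is known for a high production of lactate. The hypoxia-inducible factors, whose alpha subunits Hif1a and Epas1 are marked for destruction by oxygen-dependent prolyl hydroxylases (the Egln enzymes), raise many glycolytic genes when oxygen is low. Much of that control acts on protein, which these arrays do not read.

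In the inactivated epidermis 17 of the 36 measured members rose, 3 fell and 16 did not pass (limma, adjusted p under 0.05 over all probe sets). Over all genes 34.4% passed, 15.5% as higher and 18.9% as lower. Among the members 47.2% rose and 8.33% fell. The median difference of the members was 0.38 on the log2 scale, against 0.03 over all genes. The groups did not overlap for 19 of the 36 members, against 31.6% of all genes. Each difference below is the inactivated mean less the control mean in log2 units ± SE. At least 1 enzyme rose for 8 of the 9 glycolytic reactions that the members read, from hexokinase to lactate dehydrogenase, though not every isoform did. For hexokinase, Hk2 rose (control mean 7.28) and the brighter Hk1 (8.96) fell. For phosphofructokinase, Pfkl rose (7.69) and the brighter Pfkp (8.99) did not pass. For aldolase and lactate dehydrogenase the brighter gene, Aldoa or Ldha, rose. The 8 enzymes that rose did so by 0.73 to 1.06 on the log2 scale, or 1.66-fold to 2.09-fold. Hif1a and Epas1 themselves rose 1.46-fold and 1.39-fold by their brightest probe sets. The collagen prolyl hydroxylases P4ha1 and P4ha2 and the hexokinase Hk1 fell. Egln3, Hk2 and Pdk4 were the 3 members that rose at least 2-fold by that reading.

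**Figure D1:**
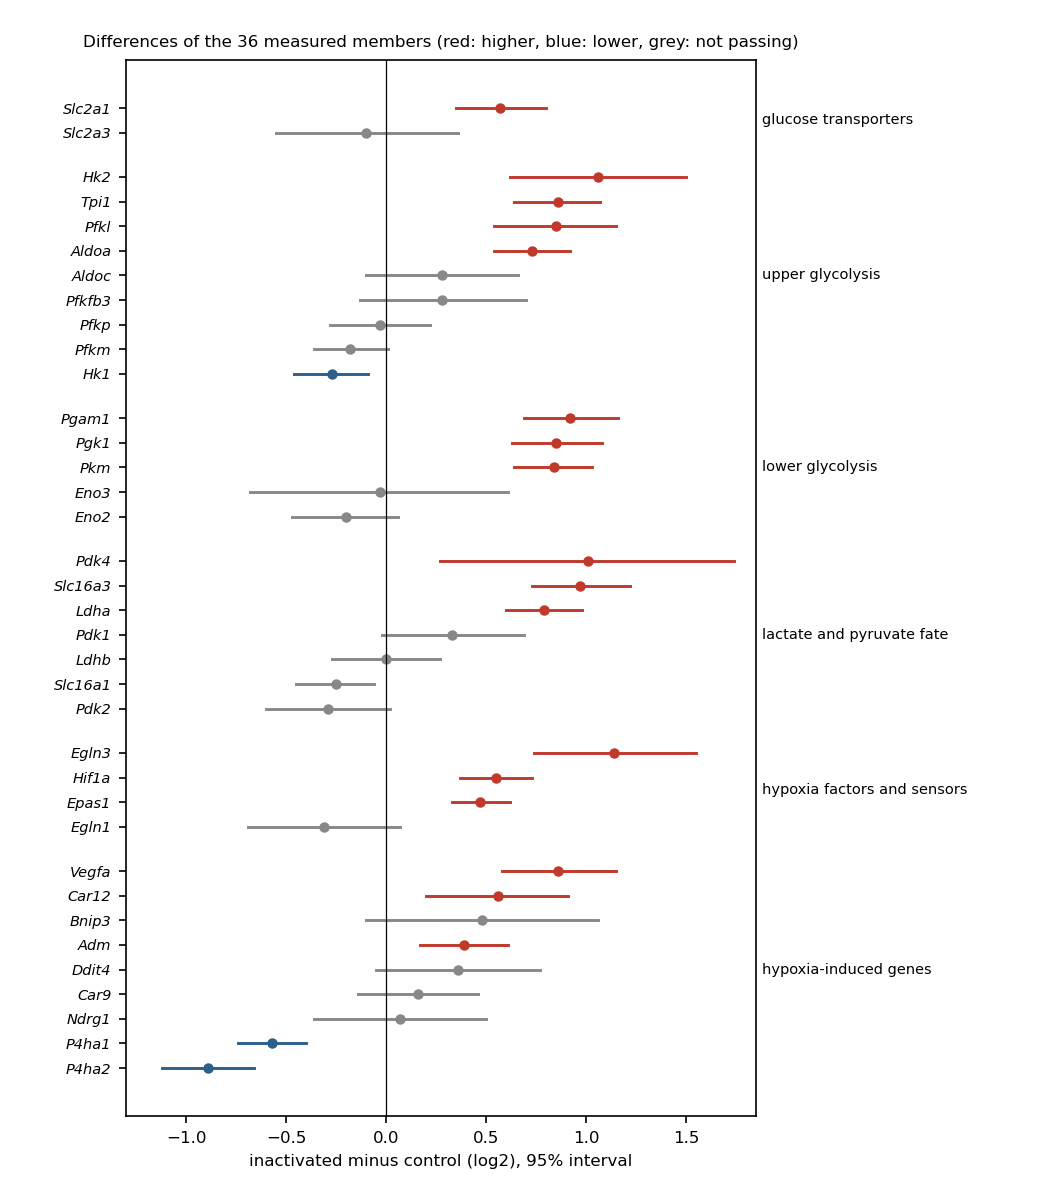
Differences between inactivated and control epidermis (log2, horizontal axis) for the 36 measured members, by role, with the 95% interval from limma over 5 and 4 arrays. Red genes were higher (17), blue genes lower (3) and grey genes did not pass (16); the red genes lie between 0.39 and 1.14.

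Of the 36 members, 33 had a window in the RefSeq promoter table used here (build GRCm38.p6), taken as the 250 bases before the first start site listed for the gene. That start is not always the outermost: for 11 of the 33, among them Ldha, Slc16a3, Hif1a and Aldoa, the window overlapped the gene's own span. Of the other 22, 18 held the core of the hypoxia response element, ACGTG or GCGTG on either strand. Among measured genes whose window lay outside the gene, 47.9% of 8193 held it. The members' 22 windows had a median of 60.8% G and C against 56.4% for those genes, and the core itself holds CG. The members were also picked as genes of glycolysis and of the response to low oxygen. A higher share may follow from that choice alone, which was not tested. By call, the core stood in 8 of 11 windows of members that rose, in the only one of a member that fell and in 9 of 10 of those that did not pass. The form ACGTG stood in 13 of the 22, against 19.9% of the measured genes. By call it stood in 5 of 11 windows of members that rose and in 7 of 10 of those that did not pass. It also stood in the only window of a member that fell. With all 33 windows the core stood in 26, against 49.7% of 14449 measured genes. A match describes the letters only. In CACGTG the core reads on both strands, and that word is also the E-box of other factors. The windows of Tpi1, Pkm and Vegfa, which rose, and of Eno2, which did not pass, lay outside their gene and lacked the core. The following windows, all outside their gene and all with the core, include genes that rose (Hk2, Pgk1, Pgam1, Egln3). They are shown because they set these beside a gene that fell (P4ha2) and genes that did not pass (Bnip3, Ldhb). Each is printed 5′ to 3′ on the gene's strand with the core in capitals.
Hk2: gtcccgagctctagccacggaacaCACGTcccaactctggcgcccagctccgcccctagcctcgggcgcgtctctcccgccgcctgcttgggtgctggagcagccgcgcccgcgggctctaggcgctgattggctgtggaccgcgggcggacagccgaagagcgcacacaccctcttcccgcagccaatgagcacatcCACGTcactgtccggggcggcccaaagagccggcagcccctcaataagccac
Pgk1: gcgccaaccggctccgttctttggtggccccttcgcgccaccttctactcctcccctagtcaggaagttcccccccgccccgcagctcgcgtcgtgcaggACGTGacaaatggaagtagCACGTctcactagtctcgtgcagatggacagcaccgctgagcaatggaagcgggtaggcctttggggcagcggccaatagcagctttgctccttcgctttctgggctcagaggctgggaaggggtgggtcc
Pgam1: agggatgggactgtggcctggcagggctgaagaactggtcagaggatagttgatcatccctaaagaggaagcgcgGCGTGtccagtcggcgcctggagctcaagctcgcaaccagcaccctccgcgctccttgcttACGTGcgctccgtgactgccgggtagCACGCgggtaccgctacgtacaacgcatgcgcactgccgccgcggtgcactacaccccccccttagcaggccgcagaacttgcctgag
Egln3: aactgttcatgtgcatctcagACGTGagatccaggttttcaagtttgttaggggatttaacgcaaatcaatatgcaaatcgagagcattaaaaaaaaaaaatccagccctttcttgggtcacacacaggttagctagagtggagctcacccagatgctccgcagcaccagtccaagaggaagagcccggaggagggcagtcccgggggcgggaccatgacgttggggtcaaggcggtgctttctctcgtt
P4ha2: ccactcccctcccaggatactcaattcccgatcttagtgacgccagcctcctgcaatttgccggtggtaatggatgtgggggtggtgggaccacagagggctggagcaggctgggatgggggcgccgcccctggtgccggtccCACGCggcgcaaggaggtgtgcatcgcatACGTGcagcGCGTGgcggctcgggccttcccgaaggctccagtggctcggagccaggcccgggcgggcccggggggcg
Bnip3: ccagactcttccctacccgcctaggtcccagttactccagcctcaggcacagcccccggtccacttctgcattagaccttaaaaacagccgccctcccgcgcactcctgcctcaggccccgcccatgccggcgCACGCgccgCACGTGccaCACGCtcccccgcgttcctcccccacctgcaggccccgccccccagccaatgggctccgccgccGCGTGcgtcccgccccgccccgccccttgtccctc
Ldhb: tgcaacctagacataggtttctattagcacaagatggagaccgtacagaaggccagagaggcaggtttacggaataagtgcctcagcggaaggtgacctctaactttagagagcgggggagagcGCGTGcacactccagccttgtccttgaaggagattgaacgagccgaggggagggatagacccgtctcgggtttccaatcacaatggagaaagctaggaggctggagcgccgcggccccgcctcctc
They lie at chr6:82774455-82774704 on the minus strand for Hk2, chrX:106186850-106187099 on the plus strand for Pgk1, chr19:41911621-41911870 on the plus strand for Pgam1 and chr12:54203875-54204124 on the minus strand for Egln3. The others lie at chr11:54100674-54100923 on the plus strand for P4ha2, chr7:138909507-138909756 on the minus strand for Bnip3 and chr6:142507958-142508207 on the minus strand for Ldhb. Pgam1, which rose, and P4ha2, which fell, each held 3 separate runs of core letters, Bnip3 held 4, and Egln3 and Ldhb 1 each.

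Uptake of glucose was read by Slc2a1 and Slc2a3. Slc2a1, the main glucose transporter of the basal epidermis, rose 1.49-fold. It read 10.14, 10.09, 10.22, 9.88 and 10.11 on inactivated replicates 1 to 5, and 9.75, 9.46, 9.30 and 9.54 on control replicates 1 to 4. Every inactivated array lay above every control, by 0.13 at the narrowest point, and the difference was 0.57 ± 0.10 (adjusted p = 0.00189). Its other probe sets gave 0.55 and 0.52, both past the threshold. Slc2a3, a high-affinity transporter, differed by -0.10 ± 0.21 (adjusted p = 0.765). Its inactivated arrays spread from 5.00 to 6.34, on both sides of controls that held between 5.65 and 5.78.

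The upper half-pathway, from glucose to triose phosphates, was read by 9 genes, of which 4 rose, 1 fell and 4 did not pass. Tpi1, which interconverts the triose phosphates, rose 1.81-fold. It read 11.15, 11.28, 11.48, 11.38 and 11.32 on the inactivated arrays and 10.70, 10.44, 10.30 and 10.43 on the controls, without overlap (0.86 ± 0.10, adjusted p = 0.000129). Aldoa, the broadly expressed aldolase, read 11.35, 11.57, 11.54, 11.56 and 11.43 against 10.98, 10.64, 10.70 and 10.70 (0.73 ± 0.09, adjusted p = 0.000182). Its groups were apart by 0.36 and all 4 of its other probe sets rose. All of its probe sets are of the kind whose probes can also match other transcripts. Pfkl, the liver-type subunit of phosphofructokinase, read 8.24, 8.55, 8.86, 8.51 and 8.53 against 8.04, 7.60, 7.45 and 7.67 (0.85 ± 0.14, adjusted p = 0.00128). Here the lowest inactivated array and the highest control, replicate 1 of each group, were 0.20 apart.

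The hexokinases moved in opposite directions. Hk2, the inducible isoform bound to mitochondria, read 8.85, 8.49, 8.40, 7.93 and 8.03 on the inactivated arrays and 7.69, 7.19, 6.95 and 7.29 on the controls (1.06 ± 0.20, adjusted p = 0.00259). Hk1, the broadly expressed isoform, read 8.48, 8.68, 8.78, 8.67 and 8.81 against 8.88, 8.89, 8.99 and 9.07 (-0.27 ± 0.08, adjusted p = 0.032). Neither gene's groups overlapped, but those of Hk1 were only 0.07 apart. Its call was lost when any of inactivated replicates 1, 2 or 4 or control replicates 3 or 4 was left out (adjusted p 0.052 to 0.0969). The dimmer Hk1 probe set fell by 0.95 ± 0.15 (adjusted p = 0.00087), from 6.84 to 5.90. The log2 ratio of Hk1 to Hk2 was lower by 1.33 in the inactivated group, without overlap (two-sided exact permutation test, p = 0.00794, the smallest that 126 splits can give; adjusted p = 0.0198 over 15 pairs of related members, of which 7 passed).

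The other subunits of phosphofructokinase did not follow Pfkl. Pfkm, the muscle-type subunit, differed by -0.18 ± 0.08 (adjusted p = 0.142) and Pfkp, the platelet-type subunit, by -0.03 ± 0.11 (adjusted p = 0.877). The ratio of Pfkl to Pfkm was higher by 1.02 and that of Pfkl to Pfkp by 0.87, both without overlap (exact permutation, adjusted p = 0.0198 for each). Pfkfb3, which makes the activator fructose 2,6-bisphosphate, differed by 0.28 ± 0.19 and Aldoc, the aldolase of brain, by 0.28 ± 0.17. Neither passed, and their inactivated arrays ran from 5.94 to 6.86 and from 6.51 to 7.41, across most of the control values. The ratio of Aldoa to Aldoc was higher by 0.45 and missed the threshold over the 15 pairs (adjusted p = 0.0595).

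**Figure D2:**
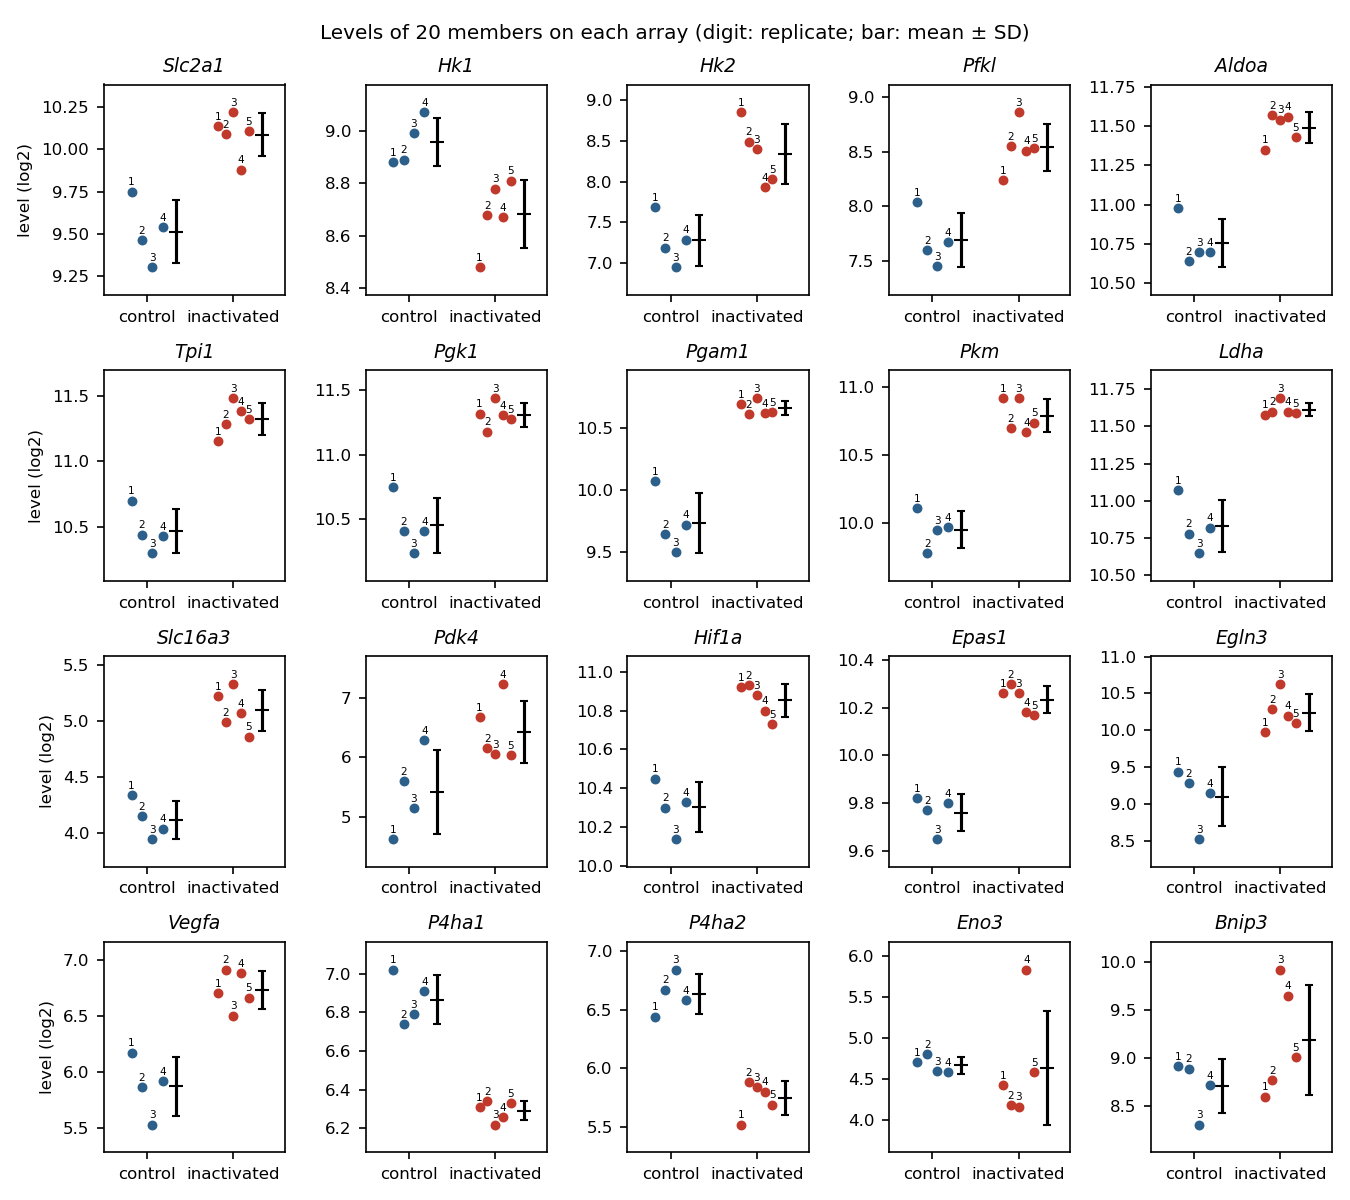
Level (log2, vertical axis, own scale in each panel) of 20 members on each array, with controls in blue and inactivated arrays in red; digits are replicate numbers and the black bar is the mean ± SD (n = 4 and 5). Pgam1, Pkm and Ldha show gaps of more than 0.5 between the groups, Pdk4 overlaps, and Eno3 is high only on inactivated replicate 4.

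The lower pathway, from triose phosphate to pyruvate, rose in 3 of 5 measured genes. Pgam1, phosphoglycerate mutase, rose 1.89-fold. It read 10.69, 10.61, 10.74, 10.62 and 10.63 on the inactivated arrays and 10.07, 9.64, 9.50 and 9.72 on the controls (0.92 ± 0.11, adjusted p = 0.000137). Pkm, pyruvate kinase, read 10.92, 10.70, 10.92, 10.67 and 10.74 against 10.11, 9.78, 9.95 and 9.97 (0.84 ± 0.09, adjusted p = 9.05e-05). Pgk1, phosphoglycerate kinase, makes the first ATP of the pathway. It read 11.32, 11.18, 11.44, 11.31 and 11.28 against 10.75, 10.41, 10.24 and 10.41 (0.85 ± 0.10, adjusted p = 0.000174). All 3 were separated without overlap, by 0.43 to 0.56. The other probe sets of Pgk1 rose by 0.91 and 0.69. Pkm was read by a single probe set, and its splice forms, which include the M2 form of proliferating cells, were not told apart.

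Enolase was read here only by its nerve-type and muscle-type genes, Eno2 and Eno3, and neither passed. Eno2 was dim, at 2.68 to 3.07 on the inactivated arrays and 2.98 to 3.50 on the controls (-0.20 ± 0.12, adjusted p = 0.233). Eno3 read 4.42, 4.18, 4.16, 5.83 and 4.58 against 4.70, 4.80, 4.59 and 4.58 (-0.03 ± 0.29, adjusted p = 0.943), with inactivated replicate 4 far above the rest. Markers of skeletal muscle were high on that same array. The median of the 10 muscle markers against their control mean was 3.34 on inactivated replicate 4, 0.05 to 0.63 on the other inactivated arrays and -0.06 to 0.08 on the controls. The log2 of their summed level ran from 7.11 to 10.60 in the inactivated group and from 6.94 to 7.20 in the controls, and 2 of the 10 were higher. Without that array Eno3 differed by -0.33 (adjusted p = 0.0514) and Pfkm by -0.23 (adjusted p = 0.047, past the threshold). Without it the 8 enzymes that rose differed by 0.71 to 1.16, and all 8 passed.

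At the end of the pathway Ldha and Slc16a3 rose, while Ldhb and Slc16a1 did not pass. Ldha, the lactate dehydrogenase subunit that favours lactate, read 11.58, 11.60, 11.69, 11.60 and 11.59 on the inactivated arrays and 11.07, 10.78, 10.65 and 10.82 on the controls (0.79 ± 0.09, adjusted p = 0.000102). Slc16a3, the lactate exporter MCT4, read 5.22, 4.99, 5.33, 5.07 and 4.86 against 4.34, 4.15, 3.95 and 4.04 (0.97 ± 0.11, adjusted p = 0.000146). Both were separated by 0.52, and Slc16a3 rose 1.97-fold. Its control mean of 4.12 lay below the median of every array (4.34 to 4.42), so this fold and the ratios made with it may be understated. Ldhb, the subunit that favours pyruvate, differed by 0.00 ± 0.12 (95% interval -0.27 to 0.27), and none of its 4 probe sets passed. Slc16a1, the lactate carrier MCT1 and the brighter of these 2 carriers, read 9.60, 9.64, 9.76, 9.72 and 10.01 against 9.99, 9.95, 9.99 and 10.06. It differed by -0.25 ± 0.09 (adjusted p = 0.052), with inactivated replicate 5 among the controls, and passed as lower without that array (-0.32, adjusted p = 0.00742).

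The balance within each of these pairs differed between the groups. The ratio of Ldha to Ldhb was higher by 0.78 and the ratio of Slc16a1 to Slc16a3 lower by 1.23, both without overlap (exact permutation, adjusted p = 0.0198 for each).

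Of the pyruvate dehydrogenase kinases, which hold pyruvate back from the mitochondria, 1 of the 3 members rose. Pdk4 read 6.68, 6.16, 6.05, 7.23 and 6.04 on the inactivated arrays and 4.64, 5.61, 5.15 and 6.29 on the controls (1.01 ± 0.33, adjusted p = 0.0441). Control replicate 4 lay within the inactivated range, and inactivated replicate 4, the array with muscle transcripts, was the highest. Adipocyte markers were high on that array too. The median of 5 was 2.38 there, -0.22 to 0.10 on the other inactivated arrays and -0.18 to 0.15 on the controls, and none of the 5 passed between the groups. The log2 of their summed level ran from 7.67 to 10.95 in the inactivated group and from 9.88 to 10.39 in the controls. Adipoq, a marker of fat cells, read 8.30 on that array, 2.23 to 4.92 on the other inactivated arrays, and 6.06 on control replicate 4 against 3.97 to 4.81 on the other controls. The part of muscle and fat transcripts in the Pdk4 values was not tested. The call was lost without any of inactivated replicates 1, 2 or 4 or control replicates 1, 2 or 3 (adjusted p 0.0563 to 0.12). Pdk1, a target of Hif1a, differed by 0.33 ± 0.16 (adjusted p = 0.148), with inactivated replicates 3 and 4 at 7.86 and 7.78 and the other 3 at 7.18 or 7.19. Its 4 probe sets disagreed in sign, from -0.40 to 0.33, and none passed. Pdk2 was dim and differed by -0.29 ± 0.14 (adjusted p = 0.146). The ratio of Pdk1 to Pdk2 was higher by 0.62 (exact permutation, adjusted p = 0.034), and the ratios of both to Pdk4 did not pass (adjusted p = 0.147 and 0.0661).

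The factors and sensors of hypoxia rose in 3 of 4 genes, all without overlap. Hif1a read 10.92, 10.93, 10.88, 10.80 and 10.73 on the inactivated arrays and 10.45, 10.30, 10.14 and 10.33 on the controls (0.55 ± 0.08, adjusted p = 0.000629). Epas1, which encodes HIF-2 alpha, read 10.26, 10.30, 10.26, 10.18 and 10.17 against 9.82, 9.77, 9.65 and 9.80 (0.47 ± 0.07, adjusted p = 0.000477). Both rises were even across arrays, with an SD of 0.08 and 0.06 among the inactivated arrays (n = 5). The size depended on the probe set. Another of Hif1a rose by 0.95 ± 0.18 and another by 0.53 ± 0.14, and a second one of Epas1 rose by 0.95 ± 0.14. Epas1 is also abundant in blood vessels. Of 8 endothelial markers 1 was higher and 1 lower, with medians of -0.28 to 0.51 on the inactivated arrays and -0.27 to 0.16 on the controls. The log2 of their summed level ran from 8.48 to 9.26 and from 8.65 to 9.09.

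The prolyl hydroxylases differed from each other. Egln3, an oxygen sensor that is itself raised by HIF, rose 2.21-fold. It read 9.98, 10.29, 10.63, 10.20 and 10.10 on the inactivated arrays and 9.44, 9.28, 8.53 and 9.15 on the controls (1.14 ± 0.18, adjusted p = 0.00111), and its other probe set rose by 0.80 ± 0.20. Egln1, the sensor that sets HIF levels in most cells, read 8.11, 8.34, 8.97, 8.40 and 8.57 against 9.17, 8.75, 8.55 and 8.71 (-0.31 ± 0.17, adjusted p = 0.198), and its groups overlapped. The other Egln1 probe set, at 8.21 against 8.16, differed by 0.05 ± 0.18 (adjusted p = 0.853). The ratio of Egln1 to Egln3 was lower by 1.46 (exact permutation, adjusted p = 0.0198). By the brightest probe sets this was the widest shift of the 15 pairs. Under the alternatives and the fits within each sex it ran from -1.59 to -1.10, and that of Hk1 to Hk2 from -1.93 to -0.56.

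**Figure D3:**
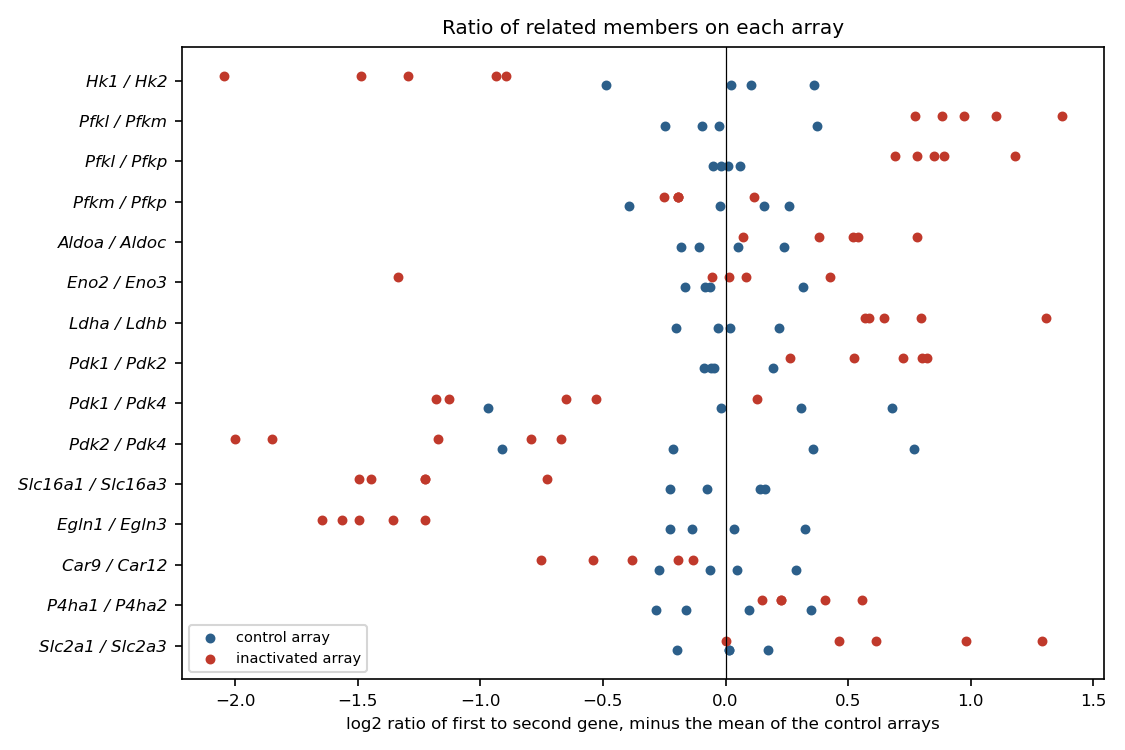
Log2 ratio of related members on each array minus the mean ratio of the control arrays (horizontal axis), with controls in blue and inactivated arrays in red. In 7 of 15 pairs the groups passed the exact permutation test over pairs, among them Egln1 / Egln3, Hk1 / Hk2, Slc16a1 / Slc16a3 and Ldha / Ldhb.

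Genes that hypoxia is known to induce had calls in both directions: 3 of 9 rose, 2 fell and 4 did not pass. Over all genes 15.5% rose and 18.9% fell. Vegfa, the vessel growth factor, read 6.70, 6.91, 6.50, 6.88 and 6.66 on the inactivated arrays and 6.17, 5.86, 5.53 and 5.92 on the controls (0.86 ± 0.13, adjusted p = 0.000735), and its other probe set rose by 1.16. Car12, a membrane carbonic anhydrase, rose by 0.56 ± 0.16 (adjusted p = 0.0254) with its groups only 0.01 apart. Its call was lost without inactivated replicate 3 or control replicates 2 or 3 (adjusted p 0.0537 to 0.0572). Adm, the peptide adrenomedullin, rose by 0.39 ± 0.10 (adjusted p = 0.0135), and its other probe set by 0.88 ± 0.17.

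The collagen prolyl 4-hydroxylase subunits went the other way. P4ha1 read 6.31, 6.34, 6.22, 6.26 and 6.33 on the inactivated arrays and 7.02, 6.74, 6.79 and 6.91 on the controls (-0.57 ± 0.08, adjusted p = 0.000328). P4ha2 read 5.52, 5.88, 5.84, 5.80 and 5.69 against 6.44, 6.67, 6.84 and 6.58 (-0.89 ± 0.10, adjusted p = 0.000138). Both were lower on every inactivated array, by at least 0.39 and 0.56, although hypoxia is known to raise them. The promoter of P4ha2, shown above, held the core. Collagen-making cells also read lower on these arrays. All 7 measured fibroblast markers fell, with medians of -1.46 to -0.63 on the inactivated arrays and -0.34 to 0.15 on the controls. The log2 of their summed level ran from 13.09 to 13.86 and from 13.99 to 14.65, so they were bright in both groups. The part of these cells in the fall of P4ha1 and P4ha2 was not tested.

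The remaining 4 hypoxia-induced members did not pass. Bnip3, a mitophagy receptor, read 8.60, 8.77, 9.92, 9.65 and 9.01 against 8.92, 8.89, 8.31 and 8.72 (0.48 ± 0.26, adjusted p = 0.198), with inactivated replicates 3 and 4 alone well above the controls, as for Pdk1. Ddit4, an inhibitor of mTOR signalling, differed by 0.36 ± 0.19 (adjusted p = 0.17). Car9, the carbonic anhydrase widely used as a hypoxia marker, was dim and differed by 0.16 ± 0.14 (95% interval -0.14 to 0.46). Ndrg1, a stress-responsive gene of differentiating cells, differed by 0.07 ± 0.19 (95% interval -0.36 to 0.50), and none of its 5 probe sets passed.

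Members with several probe sets gave a check of the values. The 36 members had 78 probe sets, and 22 members had more than 1. Of the 42 further probe sets, 19 passed in the direction of the gene's brightest one and none passed in the opposite direction. Another 4 did not pass where the brightest one did, namely a dimmer probe set each of Car12, Hif1a, P4ha1 and Pfkl.

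Other genes of the same pathways were read from 6 lists, in which 35 of 148 measured genes rose, 29 fell and 84 did not pass. The share that rose was 23.6% and the share that fell 19.6%, closer to the 15.5% and 18.9% of all genes than those of the members. Other enzymes of glycolysis and gluconeogenesis had 6 of 20 higher and 3 lower, with a median of 0.20. Gapdhs, the testis-type glyceraldehyde-phosphate dehydrogenase, rose by 2.25 ± 0.18 (4.76-fold, adjusted p = 1.5e-05). Pfkfb4, an isoenzyme of Pfkfb3, rose by 1.35 ± 0.12 (adjusted p = 2.99e-05) and the heart-type isoenzyme Pfkfb2 fell by 1.12 ± 0.18 (adjusted p = 0.00121). So Pfkfb4 and Pfkfb2 moved in opposite directions while Pfkfb3 did not pass. Pgam5, a mitochondrial phosphatase related to phosphoglycerate mutase, rose by 0.45 ± 0.09, and Pck2, the mitochondrial gluconeogenic kinase, fell by 0.64 ± 0.17.

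Of 17 carriers of glucose and of monocarboxylates, 3 rose and 5 fell. The 5 named here each shifted by more than any member. Slc2a12, a glucose transporter, fell by 3.15 ± 0.15 (8.85-fold lower, adjusted p = 9.25e-07), from 7.16 ± 0.07 (SD, n = 4) to 4.02 ± 0.34 (SD, n = 5). Slc5a1, the sodium-driven glucose transporter SGLT1, rose by 1.48 ± 0.15 (adjusted p = 6.04e-05), from 9.07 to 10.54. Slc2a9, a urate and hexose carrier, rose by 1.64 ± 0.26, and Slc16a9 and the aromatic amino acid carrier Slc16a10 fell by 1.39 ± 0.10 and 1.29 ± 0.16. None of these genes' groups overlapped.

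The routes that branch from glycolysis had genes in both directions, as did all genes, of which 15.5% rose and 18.9% fell. Glycogen and pentose phosphate enzymes had 6 of 21 higher and 4 lower (median 0.08). Pgd, an NADPH-forming enzyme of the pentose phosphate pathway, rose by 0.50 ± 0.08 and Pgm1, a phosphoglucomutase, by 0.86 ± 0.16. The glycogen-binding protein Stbd1 fell by 1.04 ± 0.15 and the phosphorylase kinase subunit Phkb by 0.55 ± 0.09. For pyruvate dehydrogenase and the citric acid cycle 22 of 31 genes did not pass, 5 rose and 4 fell, with a median of 0.02. Of these, Pdp1 and Pdpr, the phosphatase that reactivates pyruvate dehydrogenase and its regulatory subunit, fell by 0.69 ± 0.09 and 0.59 ± 0.10. Me2, a mitochondrial malic enzyme, and Suclg1, a succinyl-CoA ligase subunit, rose by 0.73 ± 0.09 and 0.38 ± 0.07.

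Regulators of HIF had 4 of 20 higher and 3 lower (median 0.01). Over all genes 15.5% rose and 18.9% fell. Siah2, a ligase that removes Egln proteins, rose by 0.79 ± 0.12 and the chaperone Hsp90aa1 by 0.49 ± 0.09. Hif1an, the asparaginyl hydroxylase that blocks HIF activity, fell by 0.41 ± 0.08 and the deacetylase Sirt1 by 0.33 ± 0.08. The rest that passed were Hif3a and Elob, higher by 0.28 ± 0.09 and 0.26 ± 0.07, and Mtor, lower by 0.33 ± 0.09. Among 39 further genes that hypoxia is known to induce, 11 rose and 10 fell, with a median of 0.08. Their differences ran from -3.17 to 3.27. Plod2, a lysyl hydroxylase of collagen, rose by 3.27 ± 0.22 (9.68-fold, adjusted p = 5.19e-06), opposite in sign to P4ha1 and P4ha2. Its control mean of 3.55 lay below the array medians, so its fold, like those of Slc2a12, Slc2a9 and Stbd1, each below the medians in at least 1 group, may be understated. Ero1a, an oxidase of the endoplasmic reticulum, rose by 0.94 ± 0.08 and the mitochondrial protein Higd1a by 0.86 ± 0.10. The caveolar protein Cav1 fell by 1.27 ± 0.10 and Selenbp1 by 1.49 ± 0.18.

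**Figure D4:**
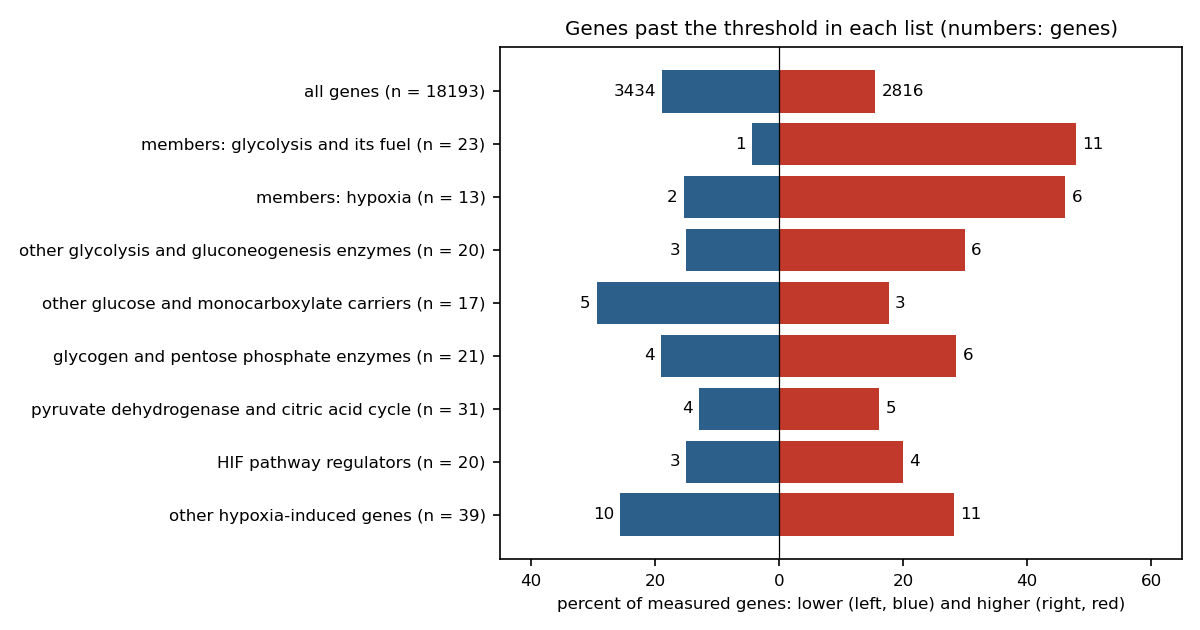
Percent of measured genes that were lower (blue, left) or higher (red, right) in inactivated epidermis, for all genes, for the members split into glycolysis with its fuel and products (23 genes) and hypoxia (13 genes), and for the 6 lists of other pathway genes; numbers are genes. Of the members 11 and 6 rose and 1 and 2 fell, while other hypoxia-induced genes had 11 higher and 10 lower.

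Markers of other cell types moved with the groups as well. Melanocyte markers rose in 6 of 7, with the log2 of their summed level at 8.34 to 9.42 on the inactivated arrays and 7.85 to 8.11 on the controls. T cell markers fell in 4 of 5 (7.36 to 7.74 against 8.64 to 8.99). Macrophage markers fell in 4 of 8 (11.33 to 12.18 against 12.15 to 12.44) and Langerhans cell markers in 4 of 6 (12.79 to 13.30 against 13.33 to 13.51). Neutrophil markers rose in 3 of 7, with medians against the control mean of 0.01 to 0.35 on the inactivated arrays and -0.08 to 0.02 on the controls. The part of these cells in the members' differences was not tested.

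Some arrays stood apart from their group. Inactivated replicate 5 lay nearest to the controls on the first principal component of all probe sets. Without it 17 members rose and 4 fell, against 35.4% of all genes called. Control replicate 1 was the highest control for 15 of the 17 members that rose, with a median of 0.18 over the members against -0.17 to 0.01 on the other controls. It was also the only female control, by its Xist and Y-linked transcripts, where the inactivated group had 3 females and 2 males. The same array had the lowest median of fibroblast markers among the controls, at -0.34 against 0.06 to 0.15. Sex and tissue make-up therefore cannot be told apart on this array. Among females, on 3 arrays against 1, the difference was smaller than among males for 15 of the 17 members that rose. It was 0.43 for Hk2, 0.56 for Ldha, 0.59 for Pgam1, 0.67 for Pkm and 0.35 for Hif1a. Among males, on 2 arrays against 3, on the same genes it was 1.53, 0.84, 1.03, 0.91 and 0.67. The exceptions were Pdk4, at 1.80 among females and 0.73 among males, and Adm, at 0.39 and 0.37. Of the members that did not pass, Bnip3 and Pdk1 each differed by 0.61 among females and 0.04 among males. Inactivated replicates 3 and 4, high for both genes, were female, as was replicate 5. All 20 members that passed kept their sign in both sexes, but they had been called on these same arrays. With sex in the model 17 members rose and 7 fell, the additional ones being Slc16a1, Egln1, Pdk2 and Eno2. The difference between the sexes was not tested, with 1 female control. The labels call the arrays biological replicates, and the p-values rest on the spread among these 9 mice.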

How the data were processed

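The authors deposited 1 table of log2 values for 45037 probe sets on 9 arrays. Per the submitters' processing notes the R package affy was used, with no version. How background and arrays were adjusted is not given in the sources used here, and the log2 scale was read from the range of the values. No column was left out and no filter was set. Array values can be compressed near background, so folds of dim genes may be understated. With the background adjustment not given, the size of this effect is not known. Genes were named from the platform annotation where a probe set had 1 symbol (34945 probe sets; 932 had several and 9160 were not listed), and each gene was read from its probe set with the highest mean. A linear model with the group as its only term was fitted to every probe set in R 4.3.3 (limma 3.58.1, moderated by eBayes, two-sided), with Benjamini-Hochberg adjustment over 45037 probe sets and a threshold of 0.05. Ratios of related members were compared by a two-sided exact permutation test over 126 splits, adjusted over 15 pairs.

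The members and lists were chosen with earlier results of these data known. Any member could be named. Array values are given for the 3 of lowest adjusted p in each role, for members that passed against most of their role, and for related members; those of Bnip3 were added after they were seen. Of each pathway list, up to 4 genes with the lowest adjusted p and up to 2 that passed against most of the list are named. For the regulators of HIF the rest that passed were added after they were seen. Older symbols were matched through RefSeq for 3 pathway genes. The fit was tested on simulated arrays. The replicate numbers were not taken as pairs, since deviations of same-numbered arrays correlated at -0.268, 0.00679, -0.0939 and 0.078. Alternatives were quantile, cyclic loess and median scaling, a filter on dim probe sets, an intensity trend with a robust prior, weighted arrays, a replicate block, sex as a covariate, the mean of a gene's probe sets, removal of probe sets with the suffixes _x_at and _s_at, a threshold of 0.01, and omission of single arrays. Fits within each sex were added after seeing the data.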

Additional observations from a re-analysis of the deposited data

Results flagged for a closer look

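Of 72 sets of values (36 members in each group), 7 held an array whose gap to its nearest neighbour was large for the group's range (Dixon's test at 95%). Chance flags about 1 in 20 groups, or 3.6 of 72. On inactivated replicate 4, Eno3 read 5.83 where the other inactivated arrays read 4.16 to 4.58. Muscle markers were high on the same array, and their part in the value was not tested. On inactivated replicate 2, Eno2 read 2.68 against 2.98 to 3.07. On inactivated replicate 3, Ldha read 11.69 against 11.58 to 11.60, a gap small beside the difference between groups. Control replicate 3 had the lowest Pfkfb3 and Car9 among the controls, 5.63 against 6.14 to 6.15 and 4.10 against 4.36 on each of the others. Control replicate 2 had the lowest Ldhb, 8.16 against 8.25 on each of the others. Control replicate 1 had the highest Ndrg1, 9.58 against 9.24 to 9.27.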

How the results depend on the processing

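Of the 20 members that passed, 16 kept their call and sign under all 20 alternatives of scaling, filtering, model and left-out arrays that could read them. The others were Hk1, Pdk4, Car12 and Adm. Adm was lost at a threshold of 0.01 only, Hk1 also with array medians subtracted (adjusted p = 0.0675) and Car12 also with the replicate block (adjusted p = 0.106). Leaving out single arrays gave 15 to 17 members higher and 2 to 4 lower, and 4844 to 6432 of all genes called. The replicate block gave 16 members higher, 4 lower and 5345 genes called; not every array correlated best with its own number. With sex as a covariate 7 members were lower. At a threshold of 0.01, 3705 of all genes passed and 21 pathway genes were higher. Among males alone 6 members were lower and 14 higher. Among females alone limma called 0 members higher, 0 lower, 0 pathway genes higher, 0 lower and 0 of all genes; at an unadjusted p under 0.05, 12 members were higher, 4 lower, 20 pathway genes higher, 18 lower and 3650 of all genes passed. With 1 control array among females, that array is assumed to vary like the others. Of the 16 members that did not pass, 5 passed under at least 1 of these 20, among them Slc16a1 under 8. Of the 7 ratios that passed, none changed sign under any alternative. Scaling moved the median of all genes from 0.0306 to between 0.018 and 0.0744. Brightness limits Eno2, Pdk2, Car9 and Slc16a3, each with a group mean below every array's median.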
